A study of Sus scrofa with 6 samples.

Results

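The genes described here encode RNA polymerase II, the general transcription factors that place it on promoters, and Mediator, measured in pig embryos at the 4-cell stage. Members were the protein-coding genes of the series table whose symbols begin with POLR2A to POLR2M, GTF2A to GTF2H, TAF or MED followed by a number, together with CDK7, CDK8 and CDK9. This gave 82 genes of 30376 in the table (20674 of them protein coding), spread over 18 chromosomes of the Sscrofa11.1 build, and all 82 passed the filter on low counts. The rule also takes 4 TAFs that belong to the RNA polymerase I factor SL1 (TAF1A, TAF1B, TAF1C and TAF1D). It further takes TAF5L and TAF6L, known as subunits of the coactivator SAGA, and TAF15, an RNA-binding protein first found with TFIID. It does not take TBP, the cyclins or the elongation factors, which were read as a separate list of 59 partner genes.

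The high-temperature group held 3 libraries of embryos cultured at 41.5 °C, and the control group held 3 libraries of embryos cultured at 38.5 °C, both for 4 days. The genotype field of the labels reads HT for the high-temperature group and WT for the control group, with no allele named. In both groups the embryos came from oocytes activated with direct-current pulses, and the labels name no sperm, so neither group is described as fertilised. Each library was made from poly(A) RNA of pooled 4-cell samples by a SMART-Seq v4 protocol, whose reads do not record strand. The study asked how high temperature affects activation of the embryonic genome.

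Total counts were 28114005 to 30079385 reads per library. Control replicate 1 stood apart from the other 5 libraries, with a TMM scaling factor of 0.865 against 1 to 1.089. Counts for several role groups, and fold changes of several named genes, are therefore also given without that library. All 13 oocyte and early embryo markers had reads, with a summed level of 2838 to 3037 CPM (a gene's reads scaled to library size) at 41.5 °C and 3019 to 3847 CPM at 38.5 °C. Of 12 cumulus and granulosa markers, 11 were in the table and 7 had reads, with summed levels of 11.8 to 13.97 CPM at 41.5 °C and 11.08 to 12.17 CPM at 38.5 °C. AMH, CYP11A1, FOXL2 and FSHR were at 0 in every library. The 8 stroma and blood markers, all with reads, summed to 12.4 to 13.11 CPM at 41.5 °C and 11.96 to 15.7 CPM at 38.5 °C.

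RNA polymerase II makes messenger RNA. The general factors TFIIA, TFIIB, TFIID, TFIIE, TFIIF and TFIIH assemble with it at a promoter, TFIID recognising the promoter and TFIIH opening the DNA and phosphorylating the polymerase. Mediator, built of head, middle and tail modules with a detachable kinase module, carries signals from activators to the polymerase. In an early embryo this machinery is at first maternal, and the embryo's own transcription begins later, in the pig around the 4-cell stage.

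The transcripts of this machinery were present at very uneven levels. Mean TPM (a transcript level scaled for gene length and library size) over the 6 libraries had a median of 20.24 over the 82 members, against 2.349 over all 16056 tested genes. Of the members, 52 averaged at least 10 TPM, 16 averaged at least 100 TPM and 10 were under 1 TPM.

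Among the 13 polymerase genes a pair of small subunits had the highest TPM and the largest subunit the lowest. These levels are of poly(A) RNA, and differences in capture between transcripts were not tested. POLR2K (chromosome 4, 36849729 to 36852622, minus strand), a zinc-binding subunit shared with RNA polymerases I and III, had 2141, 1614 and 949.9 TPM in the 3 libraries at 41.5 °C, against 2832, 1418 and 1025 TPM at 38.5 °C. The next was POLR2J (chromosome 3, 9812746 to 9816657, minus strand), a core subunit particular to polymerase II, with 774, 829 and 1041 TPM at 41.5 °C and 741, 1099 and 1128 TPM at 38.5 °C. POLR2A (chromosome 12, 52779833 to 52806210, plus strand), which encodes the catalytic subunit with the repeated C-terminal tail, had only 2.62, 2.41 and 3.70 TPM at 41.5 °C, against 1.55, 2.004 and 3.25 TPM at 38.5 °C. For these 3 genes the groups overlapped, and the order of their mean levels was the same at both temperatures, though POLR2J exceeded POLR2K in replicate 3 of each.

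Within single libraries, the POLR2K to POLR2A ratio in TPM was 256 to 1826, and POLR2K alone made up 17.38% to 31.14% of the summed TPM of all members. POLR2B, the other large catalytic subunit, exceeded POLR2A by a TPM ratio of 6.71 to 36.0. The other shared subunits spanned a wide range, with means over the 6 libraries of 318 TPM for POLR2F, 93.7 TPM for POLR2H, 60.7 TPM for POLR2E and 35.7 TPM for POLR2L. POLR2M, which encodes a regulatory protein bound to the polymerase, averaged 18.4 ± 2.22 TPM at 41.5 °C and 18.5 ± 3.65 TPM at 38.5 °C (SD, n = 3 each).

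The general factors differed as much among themselves. GTF2A2, the small subunit of TFIIA, averaged 325 ± 34.8 TPM at 41.5 °C and 385 ± 113 TPM at 38.5 °C. GTF2B, the single protein of TFIIB that bridges promoter and polymerase, averaged 178 ± 46.0 TPM at 41.5 °C and 216 ± 54.0 TPM at 38.5 °C. CDK7, the TFIIH kinase that phosphorylates the polymerase tail, averaged 103 ± 32.9 TPM at 41.5 °C and 126 ± 67.9 TPM at 38.5 °C. GTF2H4, a TFIIH core subunit that acts with the DNA-opening helicase, was far lower and averaged 0.3998 TPM over the 6 libraries, on 9 to 23 reads per library.

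The 19 genes counted with TFIID, which include TAF5L, TAF6L and TAF15, had a median of 6.35 TPM. TAF9, a histone-fold subunit shared with SAGA, was the highest at 252 ± 26.6 TPM at 41.5 °C and 318 ± 109 TPM at 38.5 °C. TAF1, the largest subunit and scaffold, averaged 3.22 ± 0.5003 TPM at 41.5 °C and 3.19 ± 0.197 TPM at 38.5 °C. At the bottom, TAF6, a histone-fold partner of TAF9, had 16, 9 and 16 reads at 41.5 °C, against 5, 13 and 0 reads at 38.5 °C. The SL1 genes TAF1D and TAF1A were high, at 135 and 131 TPM over the 6 libraries, while TAF1C was at 0.608 TPM.

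Mediator levels differed by module in the median, with single genes overlapping between modules. The middle module had a median of 114 TPM over 9 genes, the head 28.4 TPM over 9 genes, the kinase module 5.08 TPM over 5 genes and the tail 2.05 TPM over 8 genes. MED4, a middle-module subunit, led with 295 ± 104 TPM at 41.5 °C and 338 ± 134 TPM at 38.5 °C. MED14, the backbone that joins the modules, was the highest tail gene at 35.9 ± 8.25 TPM at 41.5 °C and 35.4 ± 7.99 TPM at 38.5 °C. MED16, a tail subunit, was the lowest of all members, with 4, 0 and 13 reads at 41.5 °C, against 12, 5 and 16 reads at 38.5 °C. A count of 0 in high-temperature replicate 2 allows up to 0.104 CPM (3 counts, counting error only), so a level below that could not be told from none.

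**Figure D1:**
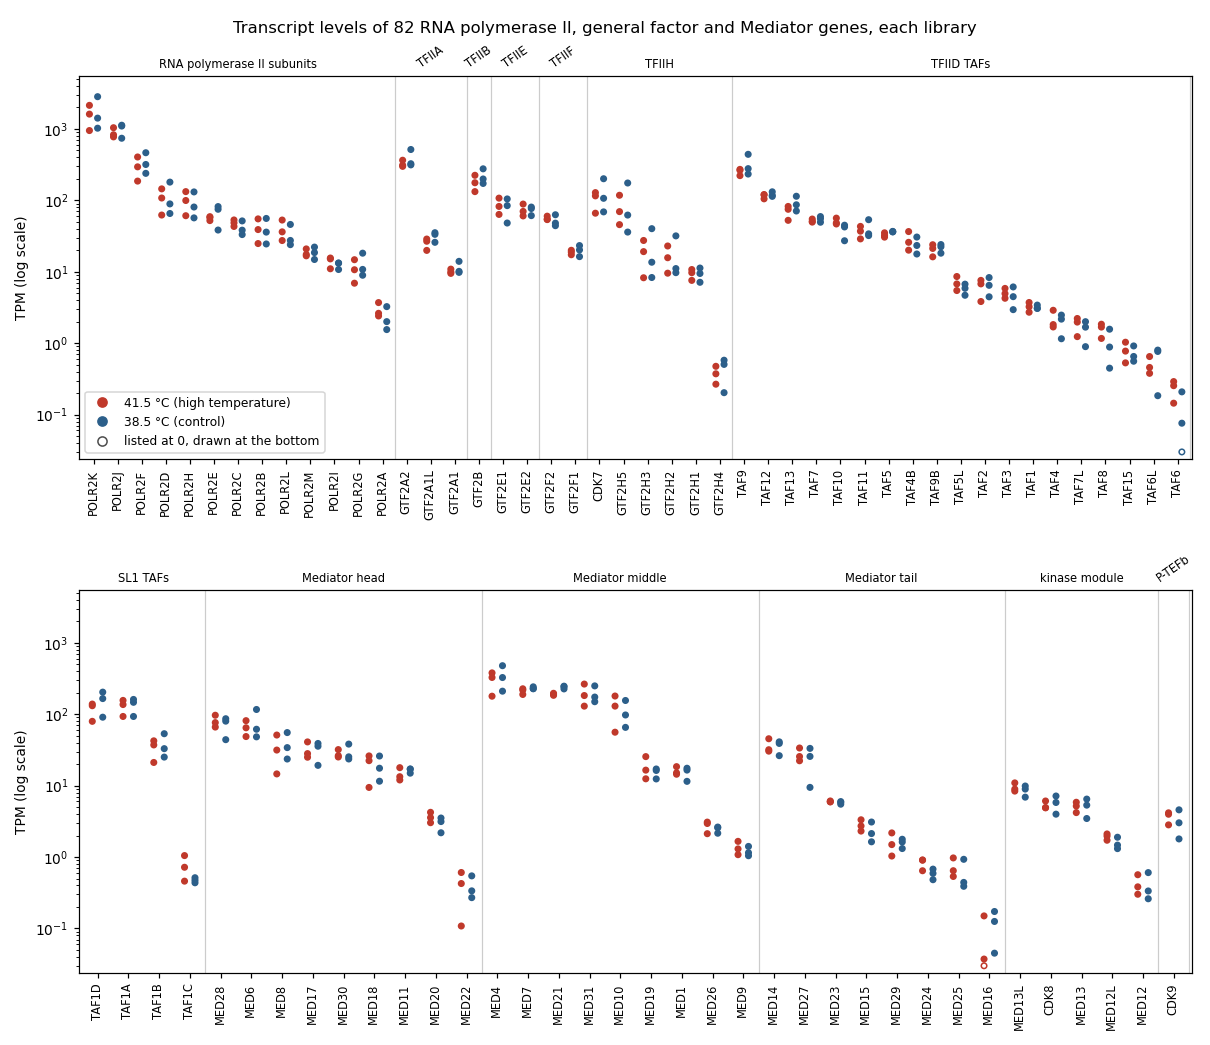
TPM (log scale) of the 82 members, 1 point per library, with 41.5 °C in red to the left of 38.5 °C in blue and genes sorted by mean TPM within each role. POLR2K lies above POLR2A by a TPM ratio of 256 to 1826, the median of the middle module is above that of the tail, and the colours overlap for most genes; open points are libraries listed at 0.

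No member passed the test between temperatures. In edgeR's quasi-likelihood test none of the 82 passed at an adjusted p of 0.05 (lowest adjusted p 0.9999), and none had an unadjusted p under 0.05. Over all 16056 tested genes 0 passed in edgeR (0%), and 297 (1.85%) had an unadjusted p under 0.05. DESeq2 called 0 members and 5 of all genes (0.0202%), and gave 1 member, GTF2A1L, an unadjusted p under 0.05, where 1.58% of all genes had one. The labels do not say whether replicates came from separate cultures, so these p-values measure the spread between these libraries only. In bulk libraries of pooled embryos, fewer cells of a kind and less RNA per cell cannot be told apart.

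Log2 fold changes (41.5 °C over 38.5 °C) were above 0 for 32 members and below 0 for 50, with a median of -0.10 against -0.017 over all tested genes. The direction of that balance rested on the scaling and on single libraries. With library totals only, 42 were above 0 and 40 below, with a median of 0.0091 (0.078 for all genes). Without control replicate 1, 49 were above 0 and 33 below, with a median of 0.087, and without high-temperature replicate 3 the split was 43 and 39. Leaving out high-temperature replicate 1 gave 25 above and 57 below (median -0.21), and leaving out control replicate 3 gave 23 and 59 (median -0.16). Summed TPM over all members was 7603, 6617 and 5460 at 41.5 °C, against 9093, 6774 and 5899 at 38.5 °C. The groups overlapped, and the difference of -695.2 TPM gave p = 0.6 in a two-sided exact permutation test, where 0.1 is the smallest p possible.

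The precision differed by gene. The 95% interval of the fold change lay within a 2-fold change either way for 48 of 82 members (58.5%, against 49.7% of all tested genes) and within 4-fold for 80. The remaining pair were TAF6 and MED16, which had few reads.

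For 6 of 82 members (7.32%) all libraries of 1 temperature lay above all of the other in CPM, near the 7.71% of all tested genes for which that was so. Of these, 2 lay above the control, where 3.66% of all tested genes did, and 4 lay below it, where 4.05% did. Both genes above the control were low or moderate in level. TAF10, a histone-fold subunit shared by TFIID and SAGA (chromosome 9, 3144262 to 3145702, plus strand), had 27.6, 28.4 and 30.1 CPM at 41.5 °C, against 19.0, 24.6 and 24.9 CPM at 38.5 °C. Its log2 fold change was 0.33 (SE 0.20, unadjusted p = 0.136 in edgeR), or 0.21 without control replicate 1. MED24, a tail subunit, had 1.78, 2.47 and 2.29 CPM at 41.5 °C, against 1.58, 1.62 and 1.76 CPM at 38.5 °C, a log2 fold change of 0.40 with a 95% interval of -0.21 to 1.01. The highest control library and the lowest high-temperature library of MED24 were separated by less than the range within the high-temperature group.

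The other 4 were below the control in every library. GTF2A1L (chromosome 3, 91991690 to 92083062, minus strand), a TFIIA large-subunit paralog known from germ cells in mice, had 99.4, 133 and 129 CPM at 41.5 °C, against 153, 173 and 156 CPM at 38.5 °C. Its log2 fold change of -0.41 (SE 0.19, 95% interval -0.86 to 0.034) had the smallest p of the members, 0.066 unadjusted in edgeR. MED21 (chromosome 5, 46704358 to 46736434, minus strand), which pairs with MED7 to form the hinge of the middle module, had 126, 121 and 111 CPM at 41.5 °C, against 201, 145 and 129 CPM at 38.5 °C. Control replicate 1 was the highest of the 6 libraries for MED21, and the log2 fold change was -0.41 (95% interval -0.92 to 0.092), or -0.20 without that library.

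TAF5, a WD-repeat subunit at the centre of TFIID, had 80.6, 75.6 and 79.2 CPM at 41.5 °C, against 107, 90.02 and 84.9 CPM at 38.5 °C. TAF7, which binds TAF1, had 129.8, 138 and 114 CPM at 41.5 °C, against 149, 139 and 142 CPM at 38.5 °C. For TAF7 the highest library at 41.5 °C and the lowest at 38.5 °C were almost equal, and the log2 fold change was -0.16 (SE 0.18). The TAF5 log2 fold change was -0.26 (SE 0.18), with a 95% interval of -0.68 to 0.16 that includes no change, and -0.16 without control replicate 1. TAF5 overlaps USMG5 by 9 bases. USMG5 had 277% of the counts of TAF5, and the sum of both gave a log2 fold change of -0.20.

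The general factors other than TFIID leaned below the control, except when control replicate 1 was left out. Of 14 genes of TFIIA, TFIIB, TFIIE, TFIIF and TFIIH, 12 had a log2 fold change below 0 and the median was -0.31. Without control replicate 1 the counts were 8 above and 6 below 0, with a median of 0.028. Leaving out any other single library kept 11 to 13 below 0, with medians of -0.44 to -0.12. With replicate number as a block in the fit, 12 were below 0 (median -0.20). None of the 14 passed the edgeR test. For TFIIH, all 6 genes were below 0 with a median of -0.35. Without control replicate 1 the same list had 5 above and 1 below, with a median of 0.29. That fit kept high-temperature replicate 1, and replicate 1 was highest in both groups for 5 of these 6 genes. Without high-temperature replicate 3 there were 2 above and 4 below (median -0.076). Leaving out any of the other libraries kept all 6 below 0 (medians -0.74 to -0.35), as did the replicate block (median -0.17). The TFIIA median was -0.36 with all libraries and 0.029 without control replicate 1. It was -0.44 to -0.25 when any other single library was left out.

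GTF2B shows the pattern in its libraries. It had 263, 205 and 141 CPM at 41.5 °C, against 383, 229 and 189.7 CPM at 38.5 °C. Control replicate 1 was the highest library, the groups overlapped, and the log2 fold change was -0.40 (SE 0.33), or -0.047 without that library. GTF2E1, the large subunit of TFIIE, was level between groups, with 377, 482 and 576 CPM at 41.5 °C, against 338, 489.7 and 582 CPM at 38.5 °C and a log2 fold change of 0.026 (SE 0.26). GTF2F1, the large subunit of TFIIF, had a log2 fold change of -0.17 with a 95% interval within 2-fold.

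For the polymerase itself, 5 genes were above 0 and 8 below, with a median log2 fold change of -0.13. The split moved both ways with single libraries. Without control replicate 1 there were 11 above and 2 below (median 0.15), and without high-temperature replicate 3 there were 9 and 4 (median 0.16). Leaving out high-temperature replicate 1 or control replicate 3 gave 2 above and 11 below (medians -0.26 and -0.31). The replicate block kept 5 above and 8 below (median -0.072). POLR2A had 13.5, 12.3 and 17.2 CPM at 41.5 °C, against 9.43, 10.1 and 15.7 CPM at 38.5 °C. The groups overlapped, and the log2 fold change was 0.29 (95% interval -0.34 to 0.91), or 0.15 without control replicate 1. POLR2J had 379, 402 and 460.2 CPM at 41.5 °C, against 428, 527 and 517 CPM at 38.5 °C, again overlapping, with a log2 fold change of -0.25 (SE 0.18). POLR2L, a small shared subunit, had a log2 fold change of 0.13, or 0.62 without control replicate 1.

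TFIID and Mediator had similar numbers of genes on either side of the control. Of 19 TFIID genes, 9 were above 0 and 10 below (median -0.067), and of 31 Mediator genes 14 were above and 17 below (median -0.065). With library totals only, Mediator had 20 above and 11 below (median 0.039), and TFIID had 10 above and 9 below. Without control replicate 1, Mediator had 18 above and 13 below (median 0.07), and TFIID had 9 above and 10 below (median -0.016). TAF9 and TAF13, histone-fold subunits, had the most negative fold changes of TFIID, each with a log2 value of -0.49, and for both the groups overlapped. Without control replicate 1 the values were -0.016 for TAF9 and -0.16 for TAF13. The TAF9 libraries were 259, 249 and 191 CPM at 41.5 °C, against 511, 260.3 and 211 CPM at 38.5 °C, so only control replicate 1 lay above every library at 41.5 °C by a wide margin. TAF13, the partner of TAF11, had 99.1, 108 and 62.8 CPM at 41.5 °C, against 178, 112 and 87.9 CPM at 38.5 °C.

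The kinases that act on the polymerase had no difference that passed the test. CDK8 had 10.03, 9.87 and 11.2 CPM at 41.5 °C, against 9.54, 11.7 and 13.7 CPM at 38.5 °C, a log2 fold change of -0.16. MED12, which activates CDK8, and MED13, which ties the kinase module to core Mediator, had log2 fold changes of 0.0011 (SE 0.39) and -0.13 (SE 0.20). CDK9, the P-TEFb kinase that releases paused polymerase, had 3.56, 3.37 and 2.19 CPM at 41.5 °C, against 1.81, 2.55 and 3.69 CPM at 38.5 °C. The CDK9 groups overlapped, and the log2 fold change was 0.18 (SE 0.34). MED1, a middle-module subunit that contacts nuclear receptors, was among the steadiest members, with 93.7, 91.0 and 104 CPM at 41.5 °C and 86.1, 101 and 102 CPM at 38.5 °C. Its log2 fold change of 0.0017 had a 95% interval of -0.42 to 0.42.

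**Figure D2:**
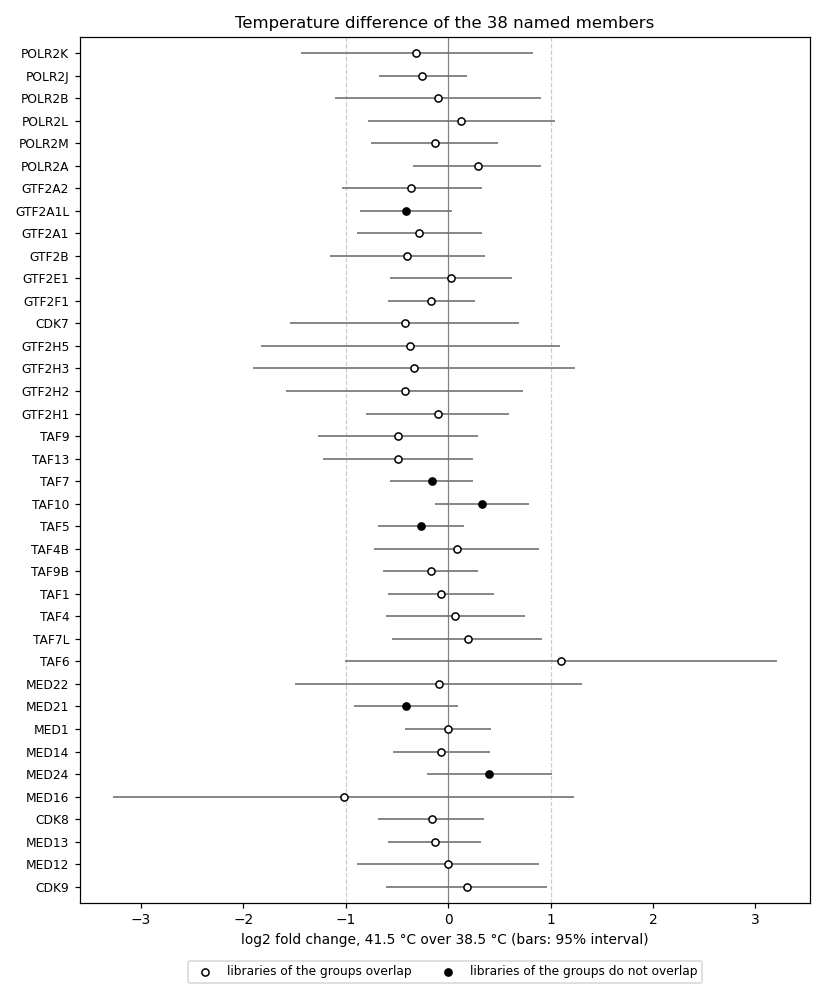
Log2 fold change (41.5 °C over 38.5 °C) of the 38 named members with 95% intervals from edgeR; filled points are genes whose libraries do not overlap between groups, and dashed lines mark a 2-fold change. Every interval includes 0, and TAF6 and MED16 have the widest.

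Libraries within a temperature differed more from each other than the group means did in most members. For 78 of 82 members (95.1%, against 93.2% of all tested genes) the wider range within a group exceeded the difference between group means on the log2(CPM + 0.5) scale. The median range within a group was 0.68, against a median absolute difference of 0.17 between groups. Over all tested genes the medians were 0.59 and 0.16.

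That spread had a direction in common. Replicate 1 was the highest library of both groups for 40 of 82 members (48.8%), against 26.7% of all tested genes. Replicate 3 was the highest of both groups for 20 members (24.4%), close to the 27.6% of all tested genes. Replicate 1 was highest and replicate 3 lowest in both groups for 37 members (45.1%, against 20%), and the opposite held for 13 (15.9%, against 16.9%). By role, replicate 1 was highest and replicate 3 lowest in both groups for 8 of 13 polymerase genes and 5 of 6 TFIIH genes. The same held for 5 of 9 head and 5 of 9 middle genes of Mediator. Replicate 3 was the highest of both groups for 5 of 8 tail genes and both TFIIE genes. Replicate 1 was also the lowest of both groups for 2 of these tail genes and both TFIIE genes. No test was made of these shares, and what the replicate numbers share between groups is not stated in the labels.

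The 4 members of at least 5 CPM with the largest coefficients of variation were TFIIH genes. GTF2H3, a core subunit, had 66.3, 46.1 and 18.3 CPM at 41.5 °C, against 113, 32.3 and 18.9 CPM at 38.5 °C, a coefficient of variation of 73.7% over the 6 libraries. GTF2H5, the smallest subunit, which stabilises the complex, had 67.6, 40.3 and 24.2 CPM at 41.5 °C, against 116, 34.4 and 20.4 CPM at 38.5 °C (71.6%). In both genes replicate 1 was the highest and replicate 3 the lowest library of each group.

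The same order of libraries was seen in GTF2H2, another core subunit, and in CDK7. GTF2H2 had 28.7, 19.1 and 12.5 CPM at 41.5 °C, against 49.1, 17.3 and 14.5 CPM at 38.5 °C (58.3%). CDK7 had 108, 96.2 and 50.5 CPM at 41.5 °C, against 199, 88.4 and 54.2 CPM at 38.5 °C (54.3%). Their log2 fold changes between temperatures were -0.42 each, with intervals of -1.58 to 0.73 and -1.54 to 0.69, and without control replicate 1 they were 0.33 for GTF2H2 and 0.25 for CDK7. The log2 fold changes of GTF2H3 and GTF2H5 were -0.33 and -0.37, and without that library 0.76 and 0.68. GTF2H1, a further core subunit, varied less (26.4%) and had a log2 fold change of -0.10.

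POLR2K had the same order, with 802, 599.6 and 322 CPM at 41.5 °C, against 1251, 521 and 359.9 CPM at 38.5 °C. Its log2 fold change was -0.31 (95% interval -1.44 to 0.83), or 0.38 without control replicate 1. POLR2B followed it with 169, 119 and 69.0 CPM at 41.5 °C, against 202, 108 and 70.6 CPM at 38.5 °C. The POLR2B log2 fold change was -0.10, or 0.41 without control replicate 1. In MED8, a head subunit, replicate 1 exceeded replicate 3 by a CPM ratio of 3.72 at 41.5 °C and 2.94 at 38.5 °C.

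Some members ran the other way or hardly varied. In GTF2E1, replicate 3 exceeded replicate 1 by a CPM ratio of 1.53 at 41.5 °C and 1.72 at 38.5 °C. MED14 had 162, 168 and 218 CPM at 41.5 °C, against 165, 203 and 204 CPM at 38.5 °C, with replicate 3 highest in both groups. MED17, a head subunit, had 48.3, 53.8 and 71.5 CPM at 41.5 °C, against 43.8, 67.5 and 70.5 CPM at 38.5 °C. GTF2F2, the small subunit of TFIIF, had the smallest spread shown here, a coefficient of variation of 7.18%, with 54.8, 55.2 and 55.4 CPM at 41.5 °C and 53.2, 48.0 and 60.1 CPM at 38.5 °C.

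**Figure D3:**
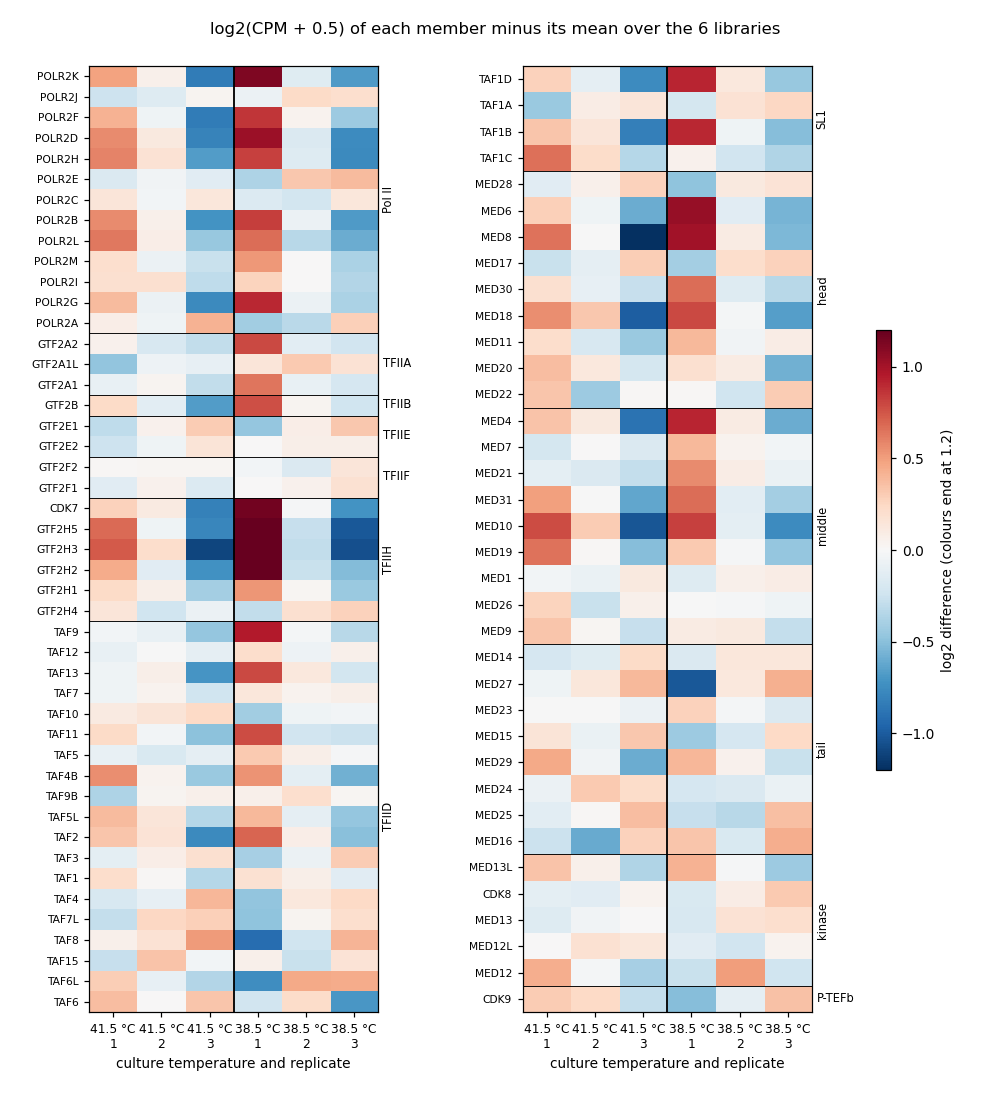
Heat map of log2(CPM + 0.5) of each of the 82 members minus its mean over the 6 libraries, with the 41.5 °C libraries left of the line and the 38.5 °C libraries right of it. Within both groups replicate 1 was highest and replicate 3 lowest in 37 of 82 members (45.1%, against 20% of all tested genes). This held for 5 of 6 TFIIH genes. Colours are relative to the mean over all 6 libraries, so the highest library of a group need not be red.

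**Figure D4:**
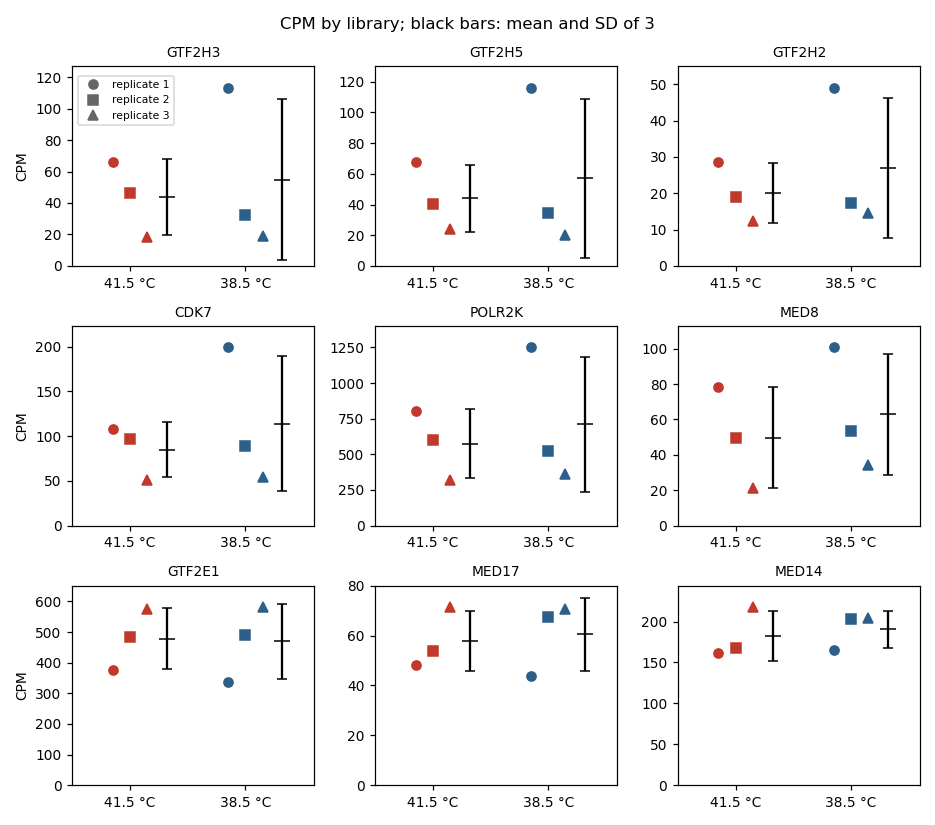
CPM by library for 9 members, with circles, squares and triangles for replicates 1, 2 and 3, and black bars for the mean and SD of 3 libraries. GTF2H3, GTF2H5, GTF2H2, CDK7, POLR2K and MED8 are highest in replicate 1 of each temperature, and GTF2E1, MED17 and MED14 are highest in replicate 3.

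Many of these genes have a paralog, and nearly all pairs examined had the same leading copy in all 6 libraries. The exception was TBPL2 against the entry named TBP, taken without the separate entry LOC100125545 described below. GTF2A1L exceeded GTF2A1, the widely used TFIIA large subunit, by a TPM ratio of 1.85 to 3.48. The ratio averaged 2.496 ± 0.512 at 41.5 °C and 2.91 ± 0.922 at 38.5 °C (SD, n = 3 each). TAF4B, a TFIID subunit needed for oocyte reserve in mice, exceeded TAF4 by a TPM ratio of 6.95 to 26.6. Its levels were 36.6, 25.9 and 20.1 TPM at 41.5 °C, against 30.7, 23.4 and 17.7 TPM at 38.5 °C. TAF4 had 1.69, 1.82 and 2.89 TPM at 41.5 °C, against 1.15, 2.17 and 2.47 TPM at 38.5 °C. The germ-cell paralog was thus the higher copy for TFIIA and TAF4.

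For TAF7 it was not. TAF7 exceeded TAF7L, a TAF known from the testis in mice, by a TPM ratio of 22.4 to 55.2. TAF9 exceeded TAF9B by 9.28 to 24.2, and TAF5 exceeded TAF5L by 3.76 to 7.75. In the kinase module the paralogs named with an L led, MED12L over MED12 by a TPM ratio of 2.43 to 6.99 and MED13L over MED13 by 1.07 to 2.85, while CDK8 exceeded CDK19 by 8.81 to 24.7.

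TBP itself, the DNA-binding core of TFIID, was low beside its relative TBPL1, which in mice is known for its role in the male germ line. TBPL1 had 201, 347 and 409 TPM at 41.5 °C, against 254, 368 and 442 TPM at 38.5 °C. TBP had 3.13, 4.68 and 4.54 TPM at 41.5 °C, against 2.77, 2.35 and 3.08 TPM at 38.5 °C. TBPL2, which takes the place of TBP in growing mouse oocytes, had 4.10, 3.17 and 3.31 TPM at 41.5 °C, against 3.95, 3.84 and 6.22 TPM at 38.5 °C. A separate entry beside TBP on chromosome 1, LOC100125545, carries the same product name and had 13.6, 8.88 and 9.36 TPM at 41.5 °C, against 11.2, 9.33 and 8.26 TPM at 38.5 °C.

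The ratio of TBPL1 to TBP was 64.0, 74.2 and 90.2 at 41.5 °C, against 91.9, 157 and 144 at 38.5 °C, so the groups did not overlap. The two-sided exact permutation test gave p = 0.1, the smallest possible with 3 libraries against 3, and 0.65 after Benjamini-Hochberg adjustment over 13 ratios. With LOC100125545 added to TBP the ratio averaged 22.4 ± 9.16 at 41.5 °C and 29.6 ± 10.5 at 38.5 °C, the groups overlapped, and the exact permutation p was 0.4. The ratio of TBPL2 to TBP averaged 0.905 ± 0.350 at 41.5 °C and 1.69 ± 0.301 at 38.5 °C, also with an exact permutation p of 0.1 (0.65 adjusted). The TBPL2 ratio leaves out LOC100125545, which alone exceeded TBPL2 in TPM in every library. For the ratios within the other pairs and within the polymerase, the exact permutation p was 0.3 to 1. TAF6L to TAF6 was not tested because TAF6 was at 0 in 1 library.

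**Figure D5:**
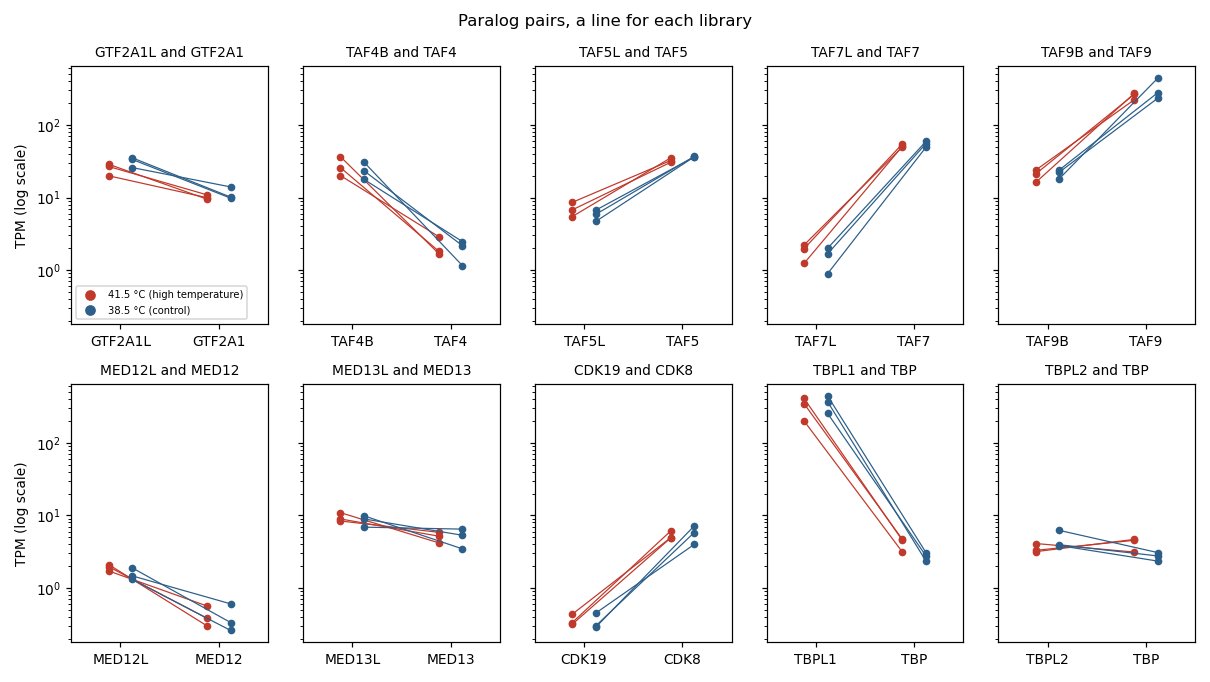
TPM (log scale) of 10 paralog pairs, 1 line per library, with 41.5 °C in red to the left of 38.5 °C in blue. The lines of a pair slope the same way in all 6 libraries except for TBPL2 and TBP, and TBPL1 exceeds TBP by a TPM ratio of 64.0 to 156.7. TBP is drawn without LOC100125545.

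The 59 partner genes, which include TBP and its relatives, the cyclins of the kinases, and pausing, elongation and termination factors, behaved alike. Of 58 that passed the filter, 0 passed the edgeR test and 0 had an unadjusted p under 0.05, with 28 above 0, 30 below and a median log2 fold change of -0.0043. With library totals only, 39 were above and 19 below. Groups lay apart in 3 of 58 (5.17%, against 7.71% of all tested genes). These were ERCC3, the TFIIH translocase that opens promoters, above the control, and CDC73, of the PAF elongation complex, and GPN1, a GTPase in polymerase import, below it. ERCC3 was low, at 1.07 to 1.67 CPM over all libraries.

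Among the cyclins, CCNC, the partner of CDK8, had 144, 113 and 45.8 CPM at 41.5 °C, against 250.4, 102 and 59.8 CPM at 38.5 °C. It had the order of libraries of CDK7 and a log2 fold change of -0.45 (SE 0.57). CCNH, the partner of CDK7, was steadier, with 56.8, 62.3 and 58.0 CPM at 41.5 °C, against 65.6, 65.5 and 60.2 CPM at 38.5 °C and a log2 fold change of -0.11. CCNT1, the partner of CDK9, had a log2 fold change of 0.051.

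The subunits of the other nuclear polymerases gave the nearest comparison. All 5 RNA polymerase I genes were below 0 (median log2 fold change -0.13), and RNA polymerase III had 5 of 10 above 0 (median -0.064). None of these 15 genes passed the edgeR test, had an unadjusted p under 0.05 or had groups that did not overlap.

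Because the kit does not mark strand, 34 members whose spans overlap another gene are less certain than the 48 that overlap none. For 16 of them the overlapping genes had more than 10% of the member's counts. MED22, a head subunit, overlaps RPL7A, a ribosomal protein gene, and LOC110256518, which together had 18957% of its counts. Its own level was 0.3804 ± 0.253 TPM at 41.5 °C and 0.384 ± 0.143 TPM at 38.5 °C, and the part of those genes' reads in it was not tested. MED12 overlaps IL2RG (1515%) and MED29, a tail subunit, overlaps PAF1 (1146%). TAF9 overlaps AK6 on the same strand (37.4%), and the sum of both gave a log2 fold change of -0.50, against -0.49 for TAF9 alone. For TAF6 with AP4M1 the sum gave 1.30, against 1.1 for TAF6 alone. For POLR2M with its overlapping noncoding gene it gave -0.01, against -0.13 for POLR2M alone. Some partner genes have the same limit. CCNH, with 10643 reads over all libraries, overlaps RASA1 with 36122. GPN1, with 6758 reads, overlaps SUPT7L with 3279 and CCDC121 with 1310.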

How the data were processed

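Poly(A) RNA was sequenced in 6 libraries. Per the file headers, the authors deposited whole-number counts for each gene, not normalized, with the FPKM and TPM values they had computed. Per the submitters' processing notes, StringTie 2.1.3b, HISAT2 2.1.0, Bowtie2, HISAT and Trimmomatic 0.38 were used with the Sscrofa11.1 build, each in a role not stated. For read counting, the tool was not given in the sources used here. Each count column was matched to its sample by name. Positions came from a RefSeq table of the same build (30352 of 30376 genes matched). Rows without a symbol (24, 0.527% to 0.658% of counts) were kept in the test.

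Counts were tested with edgeR 4.0.16 (R 4.3.3) by the quasi-likelihood test with TMM scaling, the default expression filter, temperature as the only term and p-values adjusted by Benjamini-Hochberg over 16056 genes. CPM uses TMM-scaled library sizes. The fit was tested on simulated data. Sums and ratios were compared by two-sided exact permutation (scipy 1.17.1). Alternatives were DESeq2 1.42.0, its size factors, library totals, no filter, limma 3.58.1 on log2(FPKM + 1) and log2(TPM + 1), omission of rows without a symbol, summing with overlapping genes, a replicate block and leaving out each library.

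Members and gene lists were chosen with earlier results of these data known. Named genes were those fixed by role, the 5 with the smallest p, the 3 highest and 3 lowest in TPM, the 4 most variable of at least 5 CPM, those whose groups did not overlap, and partner genes. Other members, named to illustrate their role or order of libraries, were chosen after their values were seen. Floors from reads cover counting error only. The intervals of the fold changes come from the edgeR fit and include the spread between these libraries.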

Additional observations from a re-analysis of the deposited data

How the results depend on the processing

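Members called stayed at 0 in all 14 alternatives (71 and 72 members passed the filter on FPKM and TPM), and so did partner genes. Over all genes, DESeq2 called 5, the unfiltered test 1 and the replicate block 3, against 0 in edgeR as reported. The replicate numbers were not taken to pair the samples: deviations from the group means correlated at 0.48, 0.01 and 0.54 for numbers 1, 2 and 3, and high-temperature replicate 2 correlated best with control replicate 1 (0.13). In the replicate block 10 of 82 members had an unadjusted p under 0.05, as had 1485 of 16056 tested genes, and 0 members passed. Members without overlap numbered 6, 3 on log2(FPKM + 1), and 9 to 17 when 1 library was left out (11% to 20.7%, against 12.7% to 18.5% of all tested genes; 4.23% against 5.65% on FPKM). They numbered 4 with library totals only (4.88%, against 7.37%) and 4 on log2(TPM + 1) (5.56%, against 5.87%). The TFIIF median log2 fold change was 0.024 with library totals only, against -0.066. Leaving out 1 library gave medians of -0.16 to 0.21 for the kinase module, 0.0036 to 0.21 for the tail, -0.3 to 0.12 for SL1 and -0.44 to 0.029 for TFIIA.

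Of 38 named members, 22 changed sign in some alternative and 16 in none. Other settings gave for GTF2H1 0.012 (totals only), 0.017 (FPKM) and 0.016 (TPM), for MED13 0.019 and 0.019 (FPKM, TPM), for MED14 0.026, 0.022 and 0.02, for POLR2B 0.035, 0.04 and 0.038, for POLR2M 0.001 (FPKM) and for TAF1 0.029, 0.0086 and 0.0064. MED1 gave -0.0073 (DESeq2), -0.006 (its size factors), -0.0033 (no filter) and -0.07 (summed with overlapping genes), and MED12 gave -0.0034, -0.0021, -0.0044 and -0.36. Summing with overlapping genes gave -0.013 for GTF2E1 and 0.077 for MED22.

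With 1 library left out, log2 fold changes ran from -0.77 to 0.25 for CDK7, -0.039 to 0.47 for CDK9, -0.44 to 0.029 for GTF2A1, -0.55 to 0.043 for GTF2A2, -0.16 to 0.21 for GTF2E1, -0.32 to 0.18 for GTF2H1, -0.77 to 0.33 for GTF2H2, -0.77 to 0.76 for GTF2H3, -0.82 to 0.68 for GTF2H5, -0.073 to 0.044 for MED1, -0.31 to 0.38 for MED12, -0.18 to 0.014 for MED14, -0.56 to 0.27 for MED22, -0.44 to 0.41 for POLR2B, -0.63 to 0.38 for POLR2K, -0.19 to 0.62 for POLR2L, -0.32 to 0.14 for POLR2M, -0.21 to 0.1 for TAF1, -0.13 to 0.22 for TAF4, -0.21 to 0.44 for TAF4B and -0.016 to 0.37 for TAF7L. Leaving out control replicate 1 turned 17 of them and leaving out high-temperature replicate 3 turned 9. The cause was not tested. Precision was limited by 3 libraries a group: the 95% interval lay within 2-fold for 48 of 82 members, and TAF6, MED16, MED22 and GTF2H4 rest on few reads.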
